A study of Mus musculus with 6 samples.

Results

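Expression of 10 genes of mitochondrial fatty acid oxidation was followed in epithelial cells sorted from mouse kidneys, 10 of the 16095 genes measured. They were chosen by symbol: Cpt1a and Cpt2 of the carnitine shuttle, the acyl-CoA dehydrogenases Acadvl, Acadl and Acadm, the hydroxyacyl-CoA dehydrogenase Hadh, the trifunctional protein subunits Hadha and Hadhb, the electron acceptor Etfdh, and their regulator Ppara. RNA was sequenced from 3 libraries of Trf1lox/lox mice, called Terf1_flox here, and 3 libraries of Trf1+/+ mice, called control. Terf1 is the gene of TRF1, a telomere-binding protein of the shelterin complex. Mice of both groups carried the fluorescent reporter KFP (KFP+/t) and a Cre transgene (Cre+/t), a tamoxifen-inducible CreERT2 under the Ksp-cadherin promoter, which is active in kidney tubule epithelium. Both groups, males and females, received tamoxifen by intraperitoneal injection from an age of 6 to 8 weeks, 3 times a week for 8 weeks. Cells were sorted by EpCAM staining and by the reporter signal, so the libraries cover EpCAM-positive epithelium and not the whole kidney. The labels do not say how many mice gave each library. The p-values therefore measure only the spread between 3 libraries a group, some of which may be technical.

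Long-chain fatty acids reach the mitochondrial matrix as carnitine esters, which CPT1A makes at the outer membrane and CPT2 turns back into acyl-CoA at the inner membrane. There the chain is shortened in repeated cycles of dehydrogenation, hydration, a further oxidation and cleavage, and the electrons of the first step pass through the electron transfer flavoprotein and ETFDH to ubiquinone. Kidney tubules, the proximal tubule above all, draw much of their ATP from this pathway, and PPARA is a nuclear receptor that switches on many of its genes.

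The libraries held 13870931 to 15375471 reads over all genes in Terf1_flox and 13582140 to 17680986 in control. Terf1 itself had 62.0, 24.6 and 25.3 normalized counts in Terf1_flox libraries, against 529.6, 486 and 664 in control libraries, so the targeted gene followed the labels (exact two-sided permutation p = 0.1, the smallest that 3 against 3 libraries allow). Distal tubule markers were plentiful. Umod, a marker of the thick ascending limb, had 60497 to 66079 normalized counts in Terf1_flox and 95801 to 138096 in control libraries, a lower level in every Terf1_flox library (adjusted p = 0.0814 in limma and 0.00139 in DESeq2). Slc12a1, a transporter of the same segment, was higher in every Terf1_flox library, with 46946 to 54370 normalized counts against 33842 to 41249 in control libraries (adjusted p = 0.189 in limma and 0.127 in DESeq2). Of the 6 markers of that segment, 3 were below 0 and 3 above. DESeq2 called the 3 below 0 and 0 of the 3 above, and limma called 0 of the 6. Slc12a3, of the distal convoluted tubule, had 54846 to 89032 in Terf1_flox and 48741 to 109175 in control libraries. Slc34a1, a transporter of the proximal tubule, had between 142.5 and 461 in Terf1_flox and between 110.5 and 288 in control libraries. In such sorted pools, fewer cells of a type and less RNA per cell cannot be told apart.

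All 10 genes have a promoter window in RefSeq (build GRCm38.p6; 250 bases before to 50 after the annotated start), and they were searched on both strands for AGGTCA, the core motif of nuclear receptors, and for its direct repeat with 1 base of any kind between the copies, the form bound by PPARA with its partner RXR. The repeat contains the core motif, so a match to it would also count as a core motif. The repeat was found in 0 of the 10 windows and in 0.0396% of the 32851 windows in the table. The core motif was found in 3 of the 10 windows, those of Cpt1a, Acadvl and Acadm, and in 16.3% of all windows. These 3 are printed as the windows with the core motif. The log2 fold changes of their genes between the groups were unlike, −2.48 for Acadvl, −0.41 for Acadm and −0.0035 for Cpt1a. Hadhb is printed because its start lies 273 bases from that of Hadha, in the opposite orientation. The windows of Hadha and Hadhb share 228 identical bases. A match describes letters only. Only exact copies were searched, so a window with none says nothing of inexact sites within it or of sites elsewhere in the gene. The windows are given 5′ to 3′ on the gene's strand, with the core motif (AGGTCA, or its complement TGACCT where it lies on the opposite strand) in capitals. Coordinates are those of GRCm38.p6 and were not carried over to GRCm39, the build that the submitters name.
Acadvl, chr11:70015379-70015678, minus strand: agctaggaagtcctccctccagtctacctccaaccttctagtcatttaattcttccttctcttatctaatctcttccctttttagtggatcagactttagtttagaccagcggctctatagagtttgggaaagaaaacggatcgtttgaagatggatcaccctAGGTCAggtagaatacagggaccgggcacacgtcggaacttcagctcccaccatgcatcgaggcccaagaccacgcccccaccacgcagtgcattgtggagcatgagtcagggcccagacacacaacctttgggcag
Acadm, chr3:153944594-153944893, minus strand: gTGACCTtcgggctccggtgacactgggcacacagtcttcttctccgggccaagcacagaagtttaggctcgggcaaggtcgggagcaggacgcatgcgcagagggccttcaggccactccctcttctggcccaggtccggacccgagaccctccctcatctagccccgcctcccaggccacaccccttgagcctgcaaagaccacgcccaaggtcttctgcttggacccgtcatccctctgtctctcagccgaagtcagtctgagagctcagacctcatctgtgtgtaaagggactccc
Cpt1a, chr19:3323051-3323350, plus strand: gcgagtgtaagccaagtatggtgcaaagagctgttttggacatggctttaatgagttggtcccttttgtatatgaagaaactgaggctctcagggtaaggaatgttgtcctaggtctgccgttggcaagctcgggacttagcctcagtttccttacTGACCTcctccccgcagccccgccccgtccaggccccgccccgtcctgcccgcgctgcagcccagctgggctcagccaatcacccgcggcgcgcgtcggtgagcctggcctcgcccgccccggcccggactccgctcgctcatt
Hadhb, chr5:30155003-30155302, plus strand: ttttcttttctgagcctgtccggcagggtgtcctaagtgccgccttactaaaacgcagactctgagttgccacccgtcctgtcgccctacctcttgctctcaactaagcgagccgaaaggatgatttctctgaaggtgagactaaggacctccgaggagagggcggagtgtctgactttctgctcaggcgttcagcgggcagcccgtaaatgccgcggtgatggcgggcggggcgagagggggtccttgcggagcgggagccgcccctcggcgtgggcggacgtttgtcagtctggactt
The core motif of Acadvl begins 87 bases before the start, on the same strand as the gene. Those of Cpt1a and Acadm lie on the opposite strand and begin 94 and 249 bases before the start.

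Set against control, 8 of the 10 genes had lower mean levels in Terf1_flox cells with log2 fold changes of −0.41 or below, Cpt1a was near 0 (−0.0035) and Acadl was higher (0.35). By sign alone 9 of the 10 were below 0, with a median log2 fold change of −0.95, where the median of all 14822 genes tested was −0.08 and 52.8% of them were below 0. Acadvl stood out with a 5.58-fold lower level, and Hadh, Hadhb, Hadha and Etfdh followed with 3 Terf1_flox libraries below all 3 control libraries. Cpt1a, the entry step, overlapped between the groups, as did Acadl, Acadm and Cpt2. Over all genes limma called 0 of the 10 at an adjusted p below 0.05, and it called 0 of the 14822 genes (0%). At an unadjusted p below 0.05, limma held 5 of the 10, all lower (Acadvl, Hadh, Hadhb, Etfdh and Hadha), where 8.43% of all genes tested were lower and 5.7% higher at that level. edgeR's quasi-likelihood test on the recovered reads called 0 of the 10 and 0% of all genes, with 5 of the 10, the same genes and all lower, at an unadjusted p below 0.05, where 13.4% of all genes were, 7.33% lower. DESeq2 called 4 of the 10, all lower, where it called 5.81% of the 13278 genes with an adjusted p, 3.34% lower and 2.47% higher. All 10 genes passed the limit of a mean of at least 10 normalized counts.

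The groups did not overlap for 6 of the 10 genes, all lower in Terf1_flox: Acadvl, Hadh, Hadha, Hadhb, Etfdh and Ppara. Among all genes tested, 10.8% had every Terf1_flox library below every control library, and 21.1% had groups that lay apart in either direction. The 10 genes together took 0.113%, 0.126% and 0.140% of the reads of the Terf1_flox libraries, against 0.199%, 0.197% and 0.259% in control libraries, a share that does not depend on the scaling between libraries. The highest Terf1_flox library thus lay below the lowest control library.

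**Figure D1:**
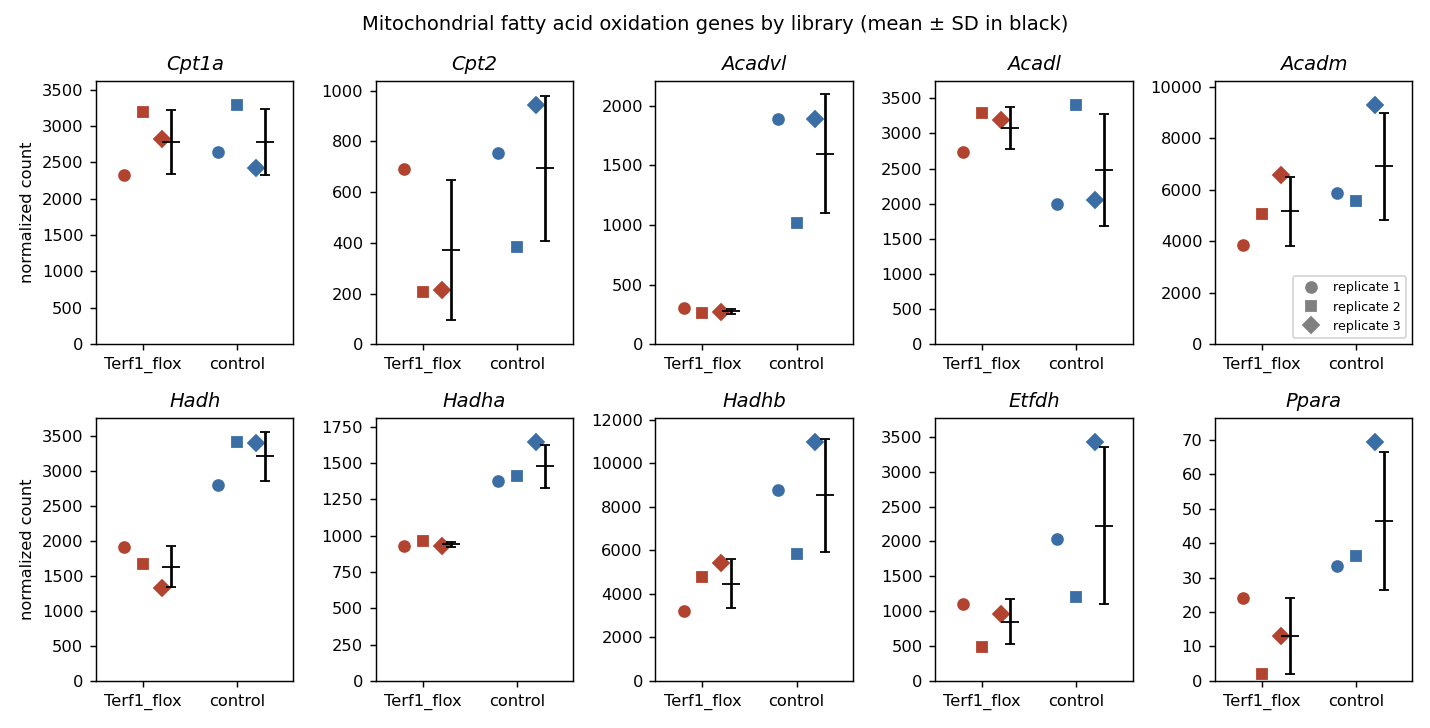
Normalized counts (vertical axis, from 0) of each of the 10 genes in the 3 Terf1_flox libraries (red, left) and the 3 control libraries (blue, right), with marker shapes for replicate numbers and the mean ± SD in black. The Terf1_flox points of Acadvl lie between 258 and 301, far below the control points at 1018 to 1889.6. The ranges of Cpt1a and Acadl overlap between the groups.

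In the carnitine shuttle, Cpt1a, the outer membrane carnitine palmitoyltransferase that sets the pace of fatty acid entry, had 2320.2, 3193 and 2815 normalized counts in Terf1_flox libraries and 2641, 3289 and 2419 in control libraries. The groups covered almost the same range. Its log2 fold change was −0.0035 ± 0.24 (SE; adjusted p = 0.997 in limma), and it turned to 0.40 when the values were corrected for transcript GC content and length. Cpt2, the inner membrane transferase, had 689.6, 207 and 214.5 normalized counts in Terf1_flox libraries and 753, 383 and 944 in control libraries. Here Terf1_flox replicate 1 lay within the control range and the other two lay below it. The log2 fold change of Cpt2 was −1.05 ± 0.58 (adjusted p = 0.462 in limma). Without Terf1_flox replicate 1 it was −1.62, and without Terf1_flox replicate 2 or control replicate 3 it was −0.75 and −0.78.

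The acyl-CoA dehydrogenases, which take the first electrons from the chain, did not move together. Acadvl, the enzyme for very long chains on the inner membrane, had 301, 258 and 266 normalized counts in Terf1_flox libraries, against 1889.6, 1018 and 1887 in control libraries. The Terf1_flox libraries were close to each other, at 275 ± 23.2, and the control libraries spread more widely, at 1598 ± 502 (SD, n = 3 each). The log2 fold change was −2.48 ± 0.37, the 19th smallest p of the 14822 genes in limma, with an adjusted p of 0.0805. That adjusted p ranged from 3e-08 with DESeq2 to 0.348 over the alternatives, and limma called Acadvl with equal library totals (adjusted p = 0.0444) and among genes with a mean of at least 50 (adjusted p = 0.0238). With equal totals limma called 0.304% of all genes, 0.297% lower and 0.00675% higher, and among genes with a mean of at least 50 it called 1.23%, 0.855% lower and 0.372% higher. With quantile normalization it called 0.054%, all lower, and none of the 10. Correction for GC content and length left Acadvl at −2.01 (adjusted p = 0.150 in limma).

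Acadvl shares 1151 of its 2686 annotated exon bases, 42.9%, with Dvl2 on the other strand, and the sources used here do not state strand-specific counting, so reads from the shared part cannot be assigned to either gene. Dvl2, a Wnt signalling adaptor, had only 14.1, 56.4 and 47.6 normalized counts in Terf1_flox libraries and 44.9, 25.7 and 15.0 in control libraries. The groups overlapped for Dvl2 (log2 fold change 0.37, adjusted p = 0.904 in limma), whose counts share the same limit, and the part of the shared bases in the Acadvl values was not tested.

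Acadl, the long-chain dehydrogenase, had 2739, 3297 and 3197 normalized counts in Terf1_flox libraries and 1993, 3406 and 2051 in control libraries. Its Terf1_flox libraries lay above control replicates 1 and 3 and below control replicate 2. Its log2 fold change was 0.35 ± 0.27 (adjusted p = 0.601 in limma), from 0.18 to 0.60 over the alternatives. Acadm, the medium-chain dehydrogenase, had 3853, 5061 and 6554 in Terf1_flox libraries and 5873, 5551 and 9290.3 in control libraries. The groups overlapped, and the log2 fold change was −0.41 ± 0.27 (adjusted p = 0.537 in limma).

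Ratios within a library, on log2(normalized count + 1), barely depend on the scaling between libraries and set these enzymes against each other. The log2 ratio of Acadvl to Acadm was −3.67, −4.29 and −4.62 in Terf1_flox libraries and −1.64, −2.45 and −2.30 in control libraries. The log2 ratio of Acadvl to Acadl was −3.18, −3.67 and −3.58 in Terf1_flox libraries and −0.08, −1.74 and −0.12 in control libraries. Neither ratio overlapped between groups. The differences of the mean log2 ratios were −2.07 and −2.83, each with an exact two-sided permutation p of 0.1, the smallest possible here, and an adjusted p of 0.25 over the 5 pairs compared. After correction for GC content and length these differences were −1.79 and −2.31. In these libraries Acadvl was therefore lower relative to either of the other dehydrogenases, although 3 against 3 libraries cannot pass 0.05.

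Hadh, the hydroxyacyl-CoA dehydrogenase for medium and short chains, had 1909, 1664 and 1322 normalized counts in Terf1_flox libraries, against 2800.1, 3412 and 3394 in control libraries. All Terf1_flox libraries were lower, with a log2 fold change of −0.98 ± 0.24 (adjusted p = 0.148 in limma and 0.0131 in DESeq2). After correction for GC content and length it was −0.71.

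Hadha and Hadhb encode the trifunctional protein, which carries out the later steps on long chains. Hadha had 927, 963 and 931 normalized counts in Terf1_flox libraries, against 1373, 1409 and 1647 in control libraries. The Terf1_flox libraries were nearly equal (940.2 ± 19.6) and lay below the control libraries (1476 ± 149; SD, n = 3 each). The log2 fold change was −0.65 ± 0.26 (adjusted p = 0.314 in limma and 0.207 in DESeq2). Hadhb had 3229.5, 4768 and 5414 in Terf1_flox libraries, against 8772, 5821 and 10996 in control libraries. Control replicate 2 lay close to Terf1_flox replicate 3, and with equal upper quartiles the groups overlapped. Its log2 fold change was −0.92 ± 0.29 (adjusted p = 0.224 in limma and 0.0398 in DESeq2).

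The log2 ratio of Hadha to Hadhb was −1.80, −2.31 and −2.54 in Terf1_flox libraries and −2.67, −2.05 and −2.74 in control libraries. It overlapped between groups, with a difference of 0.27 (exact two-sided permutation p = 0.5). The SD of this ratio was 0.38 on the log2 scale within each group. Hadha and Hadhb, whose windows share bases, were 2 of the 6 genes that were lower in every Terf1_flox library. The part of the shared region in their levels was not tested. The log2 ratios of Cpt1a to Cpt2 (difference 1.04, exact permutation p = 0.3) and of Hadh to Hadha (difference −0.34, exact permutation p = 0.2) also overlapped.

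Etfdh, the ubiquinone oxidoreductase that receives the electrons of every acyl-CoA dehydrogenase, had 1105, 484 and 958 normalized counts in Terf1_flox libraries, against 2038, 1206 and 3432 in control libraries. All Terf1_flox libraries were lower, the nearest by a small margin. This gave a log2 fold change of −1.35 ± 0.46 (adjusted p = 0.251 in limma and 0.0340 in DESeq2), and −0.97 without control replicate 3. A partner gene on the other strand, 4930579G24Rik, shares 3.70% of the exon bases of Etfdh.

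Ppara, the regulator, had the fewest reads. Its counts were 22, 2 and 13 reads in Terf1_flox libraries and 38, 38 and 88 in control libraries, or 23.9, 2.05 and 13.2 normalized counts against 33.4, 36.2 and 69.5. All Terf1_flox libraries were lower, but Terf1_flox replicate 2 decides much of the size. Its log2 fold change was −2.13 ± 1.17 (adjusted p = 0.457 in limma), −1.81 in DESeq2, −1.26 without Terf1_flox replicate 2 and −1.66 with a pseudocount of 5. At this depth the counts of Ppara in the Terf1_flox libraries were too low for a firm fold change.

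**Figure D2:**
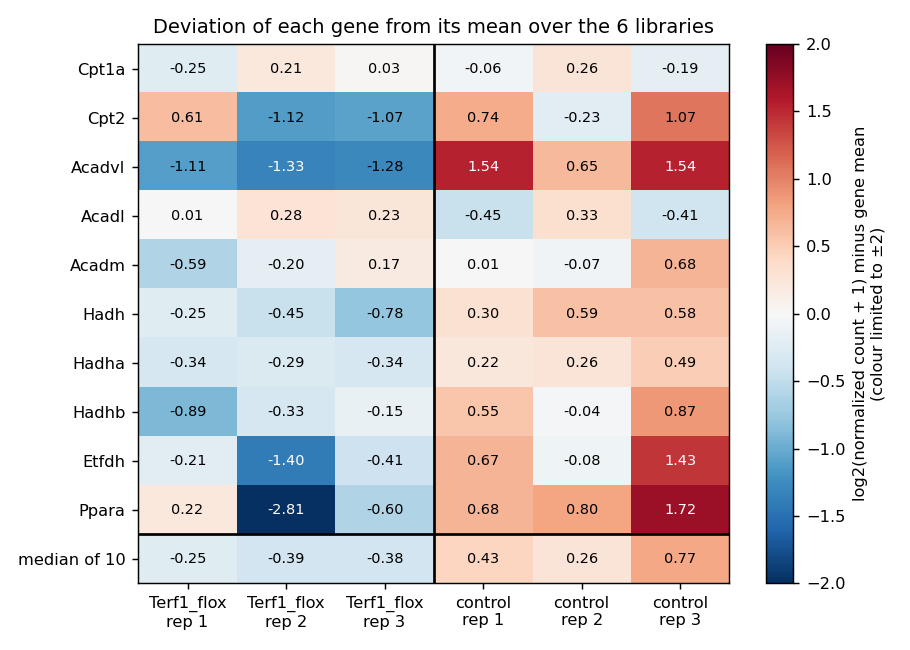
Deviation of each gene's log2(normalized count + 1) from its mean over the 6 libraries (columns, Terf1_flox left of the line and control right), with the median of the 10 genes in the bottom row. Median deviations were −0.25, −0.39 and −0.38 in the Terf1_flox columns and 0.43, 0.26 and 0.77 in the control columns, with control replicate 3 the highest for Cpt2, Acadm, Hadha, Hadhb, Etfdh and Ppara.

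Across libraries the genes did not all follow 1 pattern. The plot of deviations shows control replicate 3 highest for 6 of the 10 genes, and control replicate 2 highest for Cpt1a, Acadl and Hadh. Among Terf1_flox libraries, replicate 2 was lowest for Cpt2, Acadvl, Etfdh and Ppara, and replicate 1 for Cpt1a, Acadl, Acadm, Hadha and Hadhb. Without control replicate 3 the median log2 fold change of the 10 genes was −0.74. That library also had the highest summed level of the 6 intercalated cell markers, 20196 normalized counts, against 11420, 9173 and 6010 in the Terf1_flox libraries and 8811 and 10560 in the other control libraries. Its sum of the 6 thick ascending limb markers was the highest too, 206066 against 190370 and 161960 in the other control libraries. Its sum of the 4 distal convoluted tubule markers was the lowest of all libraries, 67083 against 132317 and 133880 in the other control libraries. The part of any of these cells in the values of the 10 genes was not tested.

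**Figure D3:**
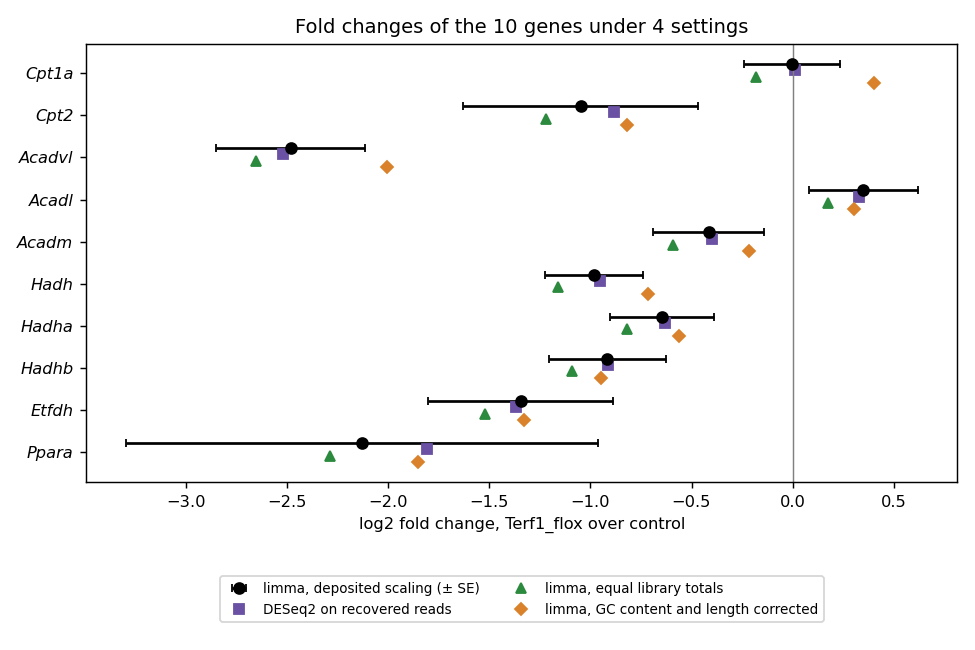
Log2 fold changes of the 10 genes, Terf1_flox over control, from limma with the deposited scaling (black, ± SE), DESeq2 on recovered reads (purple), limma with equal library totals (green) and limma after correction for GC content and length (orange). Acadvl stays between −2.66 and −2.01, and Cpt1a lies on either side of 0, from −0.18 to 0.40.

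Transcript composition moved with the comparison. When genes were split into 5 equal bins by the GC content of their transcripts, genes of the lowest bin (25.6% to 44.0%) had a median log2 fold change of 0.37 and those of the highest (55.4% to 72.8%) one of −0.49. None of the 10 genes was in either of these bins. Acadl, Hadhb and Etfdh were in the second bin, whose median was 0.06, and Hadhb (−0.92) and Etfdh (−1.35) lay well below it. Acadm, Hadh and Hadha were in the third bin (median −0.08), and Cpt1a, Cpt2, Acadvl and Ppara in the fourth (median −0.33). After correction for GC content and length the median of the 10 genes was −0.76 and that of all genes was −0.10, and the same 6 genes had groups that did not overlap.

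**Figure D4:**
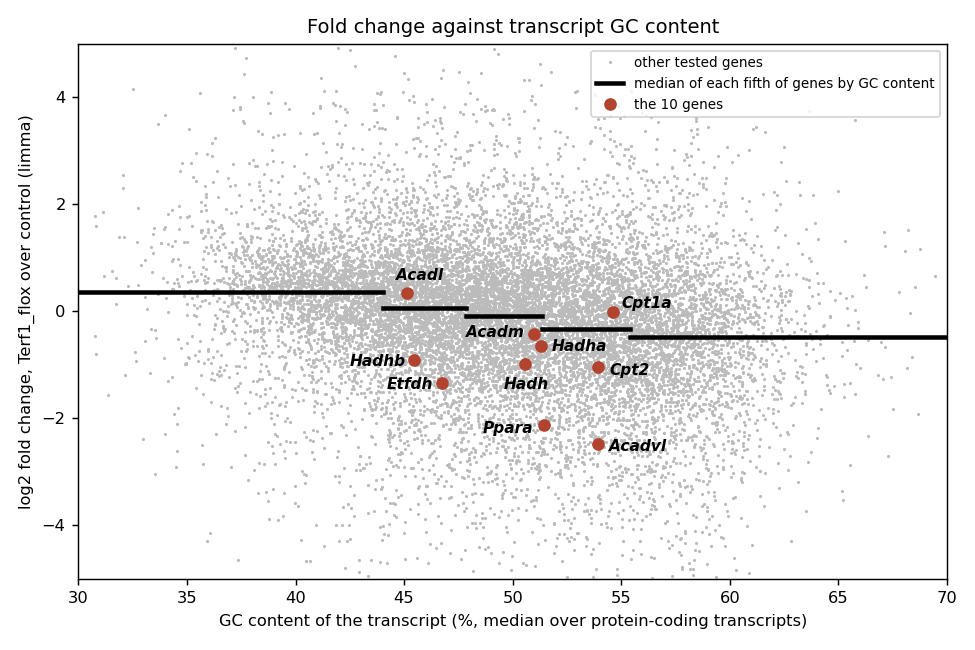
Log2 fold change, Terf1_flox over control, against the GC content of the transcript for 14489 tested genes (grey; 56 lie outside the axes), the median of each of 5 equal bins (black lines) and the 10 genes (red). The bin medians step down from 0.37 to −0.49, and Acadvl, Ppara, Etfdh and Hadhb lie furthest below the line of their bin.

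Levels per kilobase of transcript (normalized counts divided by the median length of the annotated protein-coding transcripts) put the genes in an order that holds for that length only. Acadm averaged 3948 ± 1036 per kb in Terf1_flox and 5287 ± 1587 in control libraries, and Hadhb 2193 ± 550.4 and 4183 ± 1273. Cpt1a followed with 2139.6 ± 337 in Terf1_flox and 2145 ± 349 in control libraries. Next in control came Hadh, Acadl, Etfdh, Acadvl and Cpt2, from 1789.9 to 733 per kb, and the library ranges of each neighbouring pair overlapped. Hadha, with 234 ± 4.88 per kb in Terf1_flox and 368 ± 37.1 in control libraries, lay below the gene of its partner subunit in both groups. Ppara was last, at 5.18 ± 4.34 in Terf1_flox and 18.4 ± 7.96 in control libraries. In control libraries the ranges of Hadhb and Cpt1a, and those of Hadha and Ppara, did not overlap. The order depends on the transcript. With the longest annotated forms, Cpt1a would be at 643 per kb in Terf1_flox and 645 in control libraries. Acadm would be at 2519 per kb in Terf1_flox and 3373 in control libraries, in control below Hadhb at 4165. Cpt2 would be at 156 per kb in Terf1_flox and 292 in control libraries, below Hadha in both groups.

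The genes around this pathway showed where the lower values extended. Of 15 other genes of mitochondrial beta-oxidation, all tested, 12 were below 0 and 3 above, with a median log2 fold change of −0.39, and limma called 0 and DESeq2 0. Acads, the short-chain dehydrogenase, had 109.9, 56.4 and 9.11 normalized counts in Terf1_flox libraries and 201, 343 and 228 in control libraries (log2 fold change −2.65 ± 0.94, adjusted p = 0.263 in limma). The thiolase gene Acaa2 (−1.08 ± 0.37), the acetyl-CoA acetyltransferase gene Acat1 (−0.65 ± 0.24) and Hsd17b10 (−0.69 ± 0.31) overlapped between groups. Of the short-chain and medium-chain enzymes of the first step, Acads was thus lower in every Terf1_flox library, and Acadm was not. The genes of the electron transfer flavoprotein, which hands electrons to ETFDH, also overlapped, with log2 fold changes of −0.40 ± 0.30 for Etfa and −0.34 ± 0.24 for Etfb.

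Of the other carnitine shuttle genes, 5 of 6 were tested and all 5 were below 0, with a median of −1.34 and 0 called by limma or DESeq2. Slc25a20, the carrier that exchanges acylcarnitine for carnitine across the inner membrane, had 180.6, 306 and 44.5 normalized counts in Terf1_flox libraries and 494, 459 and 748 in control libraries. All Terf1_flox libraries were lower (log2 fold change −2.02 ± 0.71, adjusted p = 0.262 in limma). Cpt1b, the muscle form of the outer transferase, was scarce, with 7.61, 0 and 0 in Terf1_flox libraries and 16.7, 52.4 and 50.5 in control libraries. Crat (−1.34 ± 0.67) and the carnitine importer gene Slc22a5 (−0.89 ± 1.02) overlapped between groups.

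Fatty acid uptake and activation went both ways: 5 of the 9 tested genes were below 0 and 4 above, with a median of −0.10. The fatty acid transporter gene Cd36 had 31.5, 135 and 9.11 normalized counts in Terf1_flox libraries and 449.5, 197 and 788 in control libraries (log2 fold change −3.54 ± 1.01, adjusted p = 0.193 in limma). DESeq2 called it (adjusted p = 0.0176), the only call in this list. Among the acyl-CoA synthetases, Acsl5 (−0.84 ± 0.30) was lower and Acsl4 (1.00 ± 0.31) higher in every Terf1_flox library, and Acsl4 was at 0.36 after correction for GC content and length. Acsl1 overlapped (−0.29 ± 0.25).

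Of the partners and relatives of PPARA, 10 were tested, 6 below 0 and 4 above, with a median of −0.24 and 0 called by limma or DESeq2. Ppargc1a, a coactivator of PPARA and a driver of mitochondrial genes, had 7569.7, 5671 and 5862 normalized counts in Terf1_flox libraries and 4969, 4508 and 4899 in control libraries. It was higher in every Terf1_flox library, with a log2 fold change of 0.40 ± 0.19 (adjusted p = 0.393 in limma). Esrra, a nuclear receptor that works with the same coactivator, was also higher in each (0.76 ± 0.48). Esrrb (−0.52 ± 0.36) was lower in each and Ncor1, a corepressor, overlapped (−0.52 ± 0.33).

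Among 7 tested targets of PPARA outside mitochondrial oxidation, 5 were below 0 and 2 above, with a median of −0.84 and 0 called by limma or DESeq2. Pdk4, the kinase that holds back pyruvate oxidation, had 445, 209 and 256 normalized counts in Terf1_flox libraries and 103.8, 107.7 and 13.4 in control libraries (log2 fold change 2.40 ± 0.88, adjusted p = 0.277 in limma). Ucp2, an inner membrane carrier, was lower in every Terf1_flox library (−1.28 ± 0.47, adjusted p = 0.275 in limma). The lipid droplet gene Plin2 (−3.25 ± 1.33) and Cyp4a31 (−1.33 ± 1.00) overlapped. Pdk4 thus lay in the opposite direction to Ppara.

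Peroxisomal oxidation shortens very long chains outside mitochondria. Of 11 tested genes listed with it, 8 were below 0 and 3 above (median −0.95). DESeq2 called 2, both lower: Pecr, which encodes an enoyl-CoA reductase and not an oxidizing enzyme, and the thiolase gene Acaa1a. Pecr had 51.1, 101.6 and 64.8 normalized counts in Terf1_flox libraries and 328, 320.3 and 240.0 in control libraries. Acaa1a had 40.2, 180.6 and 189 in Terf1_flox libraries and 557, 489 and 546 in control libraries. Their log2 fold changes were −2.06 ± 0.57 and −2.24 ± 0.65 (adjusted p = 0.188 and 0.198 in limma, 0.0350 and 0.0388 in DESeq2). Acaa1b (−4.02 ± 1.82 in limma, −1.49 in DESeq2) and Hsd17b4 (−0.95 ± 0.51) overlapped between groups.

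Some enzymes of branched-chain acyl-CoA and ketone metabolism, the acyl-CoA dehydrogenases such as that of Ivd, also feed the electron transfer flavoprotein. Of 12 genes of this metabolism, 11 were below 0 and 1 above (median −0.82). DESeq2 called 3, all lower, and limma 0. Bdh1, the ketone body dehydrogenase, had 519.9, 633 and 866 normalized counts in Terf1_flox libraries and 2091, 1685 and 2402 in control libraries (log2 fold change −1.63 ± 0.31, adjusted p = 0.0945 in limma). Ivd, the isovaleryl-CoA dehydrogenase, had 1092, 425 and 483 in Terf1_flox libraries and 2060.2, 1908 and 2548 in control libraries (−1.83 ± 0.40, adjusted p = 0.125 in limma). Mccc1 (−1.62 ± 0.49) and Bckdha (−4.64 ± 1.49) were lower in every Terf1_flox library as well, the second at 17.4, 84.2 and 0 normalized counts in Terf1_flox and 355, 185 and 366 in control libraries, and its log2 fold change in DESeq2 was −3.14.

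Malonyl-CoA, made by the acetyl-CoA carboxylases, holds CPT1A in check. Of 8 genes of malonyl-CoA and fatty acid synthesis, 4 were below 0 and 4 above (median −0.29), with 0 called by limma or DESeq2. The carboxylase gene Acacb (−0.68 ± 0.48) and Srebf1 (−0.74 ± 0.54) overlapped, as did the decarboxylase gene Mlycd, with 63.1, 1.03 and 0 normalized counts in Terf1_flox libraries and 59.8, 111.5 and 163 in control libraries (log2 fold change −4.36 in limma and −2.36 in DESeq2). Acly, which makes cytosolic acetyl-CoA, was lower in every Terf1_flox library (−0.78 ± 0.37, adjusted p = 0.390 in limma).

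**Figure D5:**
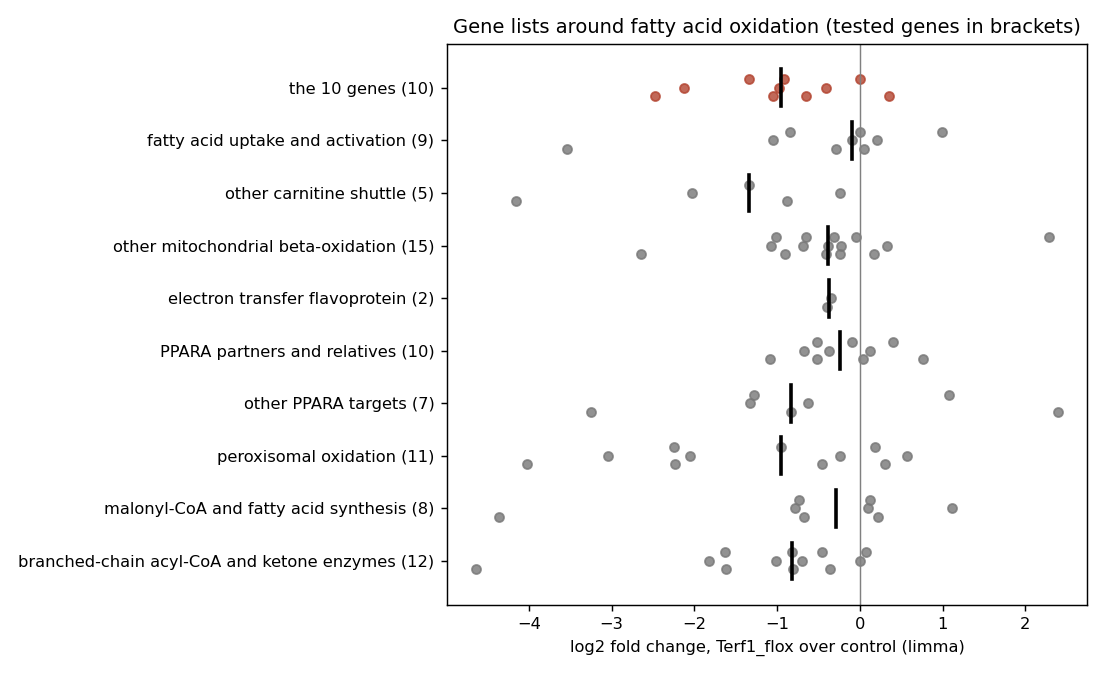
Log2 fold changes, Terf1_flox over control, of each tested gene (points) in the 10 genes (red) and in 9 lists of related genes (grey), with the median of each list as a black bar. Medians run from −1.34 for the other carnitine shuttle genes to −0.10 for fatty acid uptake and activation, and single genes reach −4.64 (Bckdha) and 2.40 (Pdk4).

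Markers of other cells varied beside these values. The 9 proximal tubule markers analysed summed to 5643, 4091 and 14605 normalized counts in Terf1_flox libraries and to 4162, 3024 and 2069.8 in control libraries. Kap, an androgen-responsive gene of the proximal tubule, took 4626, 2051 and 9437 of these in Terf1_flox libraries and 1959, 1444 and 467 in control libraries. Of the 8 proximal tubule markers tested, 5 were above 0 and 3 below: Slc5a12 (−4.26), Aqp1 (−1.11) and Cubn (−0.23), all with overlapping groups. The groups lay apart for 1 of the 8, Kap, which was higher in every Terf1_flox library. Its log2 fold change was 2.03 (adjusted p = 0.228 in limma and 0.00316 in DESeq2). DESeq2 called 1 of the proximal tubule markers, Kap, and limma 0. Terf1_flox replicate 3 had the highest sum of these markers. It had the lowest Hadh of all libraries, but the highest summed level of the 10 genes among the Terf1_flox libraries, 21685.3 normalized counts against 17097.3 and 19896.5. The 6 thick ascending limb markers summed to 133917 to 141500 in Terf1_flox and 161960 to 206066 in control libraries, with Umod the largest part. By sign the list was split, with Umod, Ptger3 and Kcnj1 below 0 and Slc12a1, Cldn10 and Cldn16 above. DESeq2 called the 3 below 0 and 0 of the 3 above. The groups lay apart for these 3 lower markers and, in the other direction, for Slc12a1. The sums of 4 of 5 principal cell markers were 180.6 to 819 in Terf1_flox and 514 to 1658 in control libraries. All 4 were below 0 (median log2 fold change −1.87), as were all 6 intercalated cell markers (median −1.33). In each of these 2 lists the groups lay apart for 1 marker. DESeq2 called 0 of the principal cell markers and 1 of the intercalated cell markers, lower. Of 4 distal convoluted tubule markers, 1 was below 0 and 3 above (median 0.13). Among all genes tested, 52.8% were below 0. Macrophage markers (3 of 7 analysed) summed to 17.4 to 143 in Terf1_flox and 20.0 to 78.3 in control libraries, and 1 of 5 fibroblast markers to 3.04 to 15.2 and 1.76 to 14.2. Erythroid markers (3 of 4) summed to 82.1 to 434 in Terf1_flox and 122 to 540.1 in control libraries. The endothelial and podocyte markers were not analysed here. Mitochondrially encoded transcripts made up 18.1%, 16.2% and 20.6% of the reads in Terf1_flox libraries and 13.0%, 12.9% and 10.3% in control libraries. With totals of nuclear genes made equal, the median log2 fold change of the 10 genes was −1.02. The part of any of these in the result was not tested.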

How the data were processed

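The values deposited by the authors are normalized counts (a signal: reads of a gene over the library's size factor) of 16095 genes. Per the submitters' processing notes, DESeq2 and the build GRCm39 were used; aligner, counter, annotation and any gene filter: not given in the sources used here. In each library 100% of the values were whole multiples of 1 step (within 0.01 of a read), so reads were recovered by division.

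The comparison was Terf1_flox over control in limma (3.58.1, R 4.3.3; mean-variance trend, two-sided) on log2(normalized count + 1), over 14822 genes with a mean of at least 10, with Benjamini-Hochberg adjustment over all of them and a threshold of 0.05. Fold changes are on that log2 scale, as differences of mean logs; for low genes they depend on the pseudocount, and with libraries near 0 they can exceed the change in mean counts. The ± is the SE (limma) or the SD (levels). edgeR (4.0.16) and DESeq2 (1.42.0) were run on the recovered reads; they call 0 and 772 genes. Ratios were tested by exact permutation over libraries. limma, edgeR and DESeq2 were also run on simulated reads with known changes, to check the code and not the results given here. The correction for transcript GC content and length regressed each library's deviations on splines of both, from GENCODE release 21 for mouse (97.6% of genes matched). Also tried were a pseudocount of 0.5 or 5, every gene or those averaging 50 or more, equal totals, equal nuclear totals, equal upper quartiles, quantile normalization, Xist as a covariate, a replicate block and leaving out each library.

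The 10 genes and all lists were chosen with earlier results of these data known. Named genes were the 10, Terf1, up to 4 genes per related list with the smallest limma p, and the 2 markers with the highest mean per cell type, of which only some are printed; Dvl2, 4930579G24Rik, Slc34a1, Ptger3, Kcnj1, Cldn10, Cldn16, Slc5a12, Aqp1 and Cubn were named after their values were seen. Promoter windows came from RefSeq (GRCm38.p6), matched by symbol for 10 of 10 genes. Protein sequences were not used here.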

Additional observations from a re-analysis of the deposited data

How the results depend on the processing

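With limma and the deposited scaling 0 genes were called. DESeq2 called 772, limma on genes averaging 50 or more called 132, with equal totals 45, with equal totals of nuclear genes 10 and with quantile normalization 8; the cause was not tested. Of the 10 fatty acid oxidation genes, DESeq2 called 4 (Acadvl, Hadh, Hadhb and Etfdh), and limma called 1, Acadvl, on genes averaging 50 or more and with equal totals. Terf1 was called by DESeq2 (log2 fold change −3.89), on genes averaging 50 or more (−3.99) and with equal totals (−4.17). In leave-one-out fits 0 genes were called, Terf1 lay between −4.42 and −3.77 and the median of the 10 genes from −1.05 to −0.74. The log2 fold change of Cpt1a, −0.0035 in the report, was above 0 with DESeq2 (0.014), edgeR (0.0145), equal upper quartiles (0.12), GC content and length corrected (0.40, also with the replicate block), and with 1 library left out it lay between −0.11 and 0.12. The other 9 genes kept their sign under all alternatives that gave a value; Ppara is below the limit of a mean of 50. Equal upper quartiles left 5 of the 10 without overlap between groups, Hadhb being the exception; the other scalings left 6. The 5 ratios kept their sign.

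The replicate numbers did not pair the libraries: correlations of same-numbered deviations were −0.049, 0.00013 and −0.0069, and 0 of 6 libraries correlated best with their own number. With the replicate block limma called 0 genes and Acadvl had an adjusted p of 0.213. Depth limits Ppara, at 2 to 88 reads per library, more than the other 9 genes, at 202 reads or more. Promoter motifs and levels per length depend on which annotated start and transcript is used.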
